A study of Mus musculus with 12 samples.

Results

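Parvalbumin and 9 other genes that mark large myelinated and proprioceptive sensory neurons were followed in dorsal root ganglia of YAC Q84 and wild-type (WT) mice. These ganglia hold the cell bodies of the sensory neurons of body and limbs. The 10 members, Pvalb, Calb1, Spp1, Esrrg, Whrn, Heg1, Necab2, Fam19a1 (Tafa1 in newer annotations), Ldhb and Cntnap2, were chosen by name as known markers, out of 35583 genes with a name in the annotation used. Earlier results of these data were known when they were chosen, so counts of calls among them are not independent of the data. All 10 were listed and all 10 passed the filter on low counts.

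Proprioceptors report muscle stretch and tension through large, heavily myelinated fibres, and some of the low-threshold touch neurons of the ganglion have fibres of a similar kind. Neurons with such fibres can fire at high rates. They are told apart from small pain and itch neurons by calcium buffers, fast potassium channels and a high oxidative capacity. No marker of these cells is wholly private to them: Pvalb is also a gene of fast skeletal muscle, Spp1 of macrophages and Heg1 of endothelium.

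The series compared poly(A) RNA of ganglia taken at 24 weeks of age in 12 libraries, of which 6 are labelled WT (3 male, 3 female) and 6 are labelled Q84 (1 male, 5 female). In YAC Q84 mice human ATXN3, with its own regulatory sequence and an expanded CAG repeat of the kind that causes spinocerebellar ataxia type 3, is carried on a yeast artificial chromosome beside the mouse Atxn3 gene; the WT mice lack the transgene. Strain and zygosity are not given in the sources used here, and no label ties a library to 1 animal, so the p-values rest on the spread among libraries, which may be technical. The libraries held 66490481 to 86891563 estimated counts each.

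The genotype labels were checked with the 1000-base mouse Atxn3 transcript, to which reads of human ATXN3 can be assigned. It stood at 62.7 to 79.4 TPM (length-scaled transcript abundance) in 5 libraries labelled Q84 and at 0 to 0.285 TPM in 5 labelled WT. Against their labels, Q84 female 5 was at 0.0612 TPM and WT female 2 at 34.0 TPM. Each comparison is therefore given over the 12 libraries as labelled and over the 10 left without these 2 libraries, which were not moved to another group. Pan-neuronal genes were abundant in every library, with a summed level of 7887 to 11370 TPM over 14 genes, while 12 skeletal muscle genes summed to between 7.73 and 3293 TPM.

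RefSeq promoter windows (250 bases before to 50 after a start, build GRCm38.p6) were found for 9 of the 10 members, 15 windows in all. The 250 bases before the start are printed for the members whose transcripts the results below turn on, and for the single window with a motif match. Pvalb has 2 starts. The upstream one is the start of the transcript Pvalb-202, and the downstream one that of Pvalb-201, whose levels behaved differently across libraries.
Pvalb-202, chr15:78206401-78206650, minus strand: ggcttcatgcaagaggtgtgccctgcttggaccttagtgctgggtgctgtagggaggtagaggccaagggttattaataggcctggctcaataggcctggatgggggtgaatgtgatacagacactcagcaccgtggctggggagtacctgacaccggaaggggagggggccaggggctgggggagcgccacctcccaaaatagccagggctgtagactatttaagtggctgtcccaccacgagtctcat
Pvalb-201, chr15:78204238-78204487, minus strand: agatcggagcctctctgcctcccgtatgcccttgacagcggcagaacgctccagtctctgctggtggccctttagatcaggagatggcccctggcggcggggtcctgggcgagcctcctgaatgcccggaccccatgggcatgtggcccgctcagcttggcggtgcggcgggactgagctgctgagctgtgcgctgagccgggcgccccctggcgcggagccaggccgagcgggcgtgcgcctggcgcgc
The bases before the Pvalb-201 start held 71.6% G and C, against 58.4% before the Pvalb-202 start. For Cntnap2, the start of the long transcript Cntnap2-202 and a second, downstream start are shown. The second start lies 9 bases from the annotated start of Cntnap2-205.
Cntnap2-202, chr6:45059811-45060060, plus strand: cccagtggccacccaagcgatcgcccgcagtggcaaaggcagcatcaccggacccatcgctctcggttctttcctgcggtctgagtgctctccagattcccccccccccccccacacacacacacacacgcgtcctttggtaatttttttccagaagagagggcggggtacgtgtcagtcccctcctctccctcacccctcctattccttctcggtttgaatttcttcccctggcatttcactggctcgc
Cntnap2-205, chr6:47244146-47244395, plus strand: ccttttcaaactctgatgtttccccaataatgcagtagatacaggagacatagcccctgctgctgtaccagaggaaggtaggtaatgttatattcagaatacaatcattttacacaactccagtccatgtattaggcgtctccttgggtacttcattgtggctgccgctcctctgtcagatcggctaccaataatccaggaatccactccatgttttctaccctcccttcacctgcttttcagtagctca
The motifs searched on both strands of the windows were TNAAGGTCA, the site of the estrogen-related receptors to which the Esrrg product belongs, and TGTGGT, the core bound by Runx factors such as the proprioceptor factor Runx3. TNAAGGTCA was in 0 of the 15 windows, and 1.28% of the 32851 windows of all genes held it. TGTGGT was in 1 of the 15, against 16.8% of all windows. That match was on the minus strand of the Spp1 window, so that it reads as ACCACA, shown in capitals, 128 bases before the start.
Spp1, chr5:104434861-104435110, plus strand: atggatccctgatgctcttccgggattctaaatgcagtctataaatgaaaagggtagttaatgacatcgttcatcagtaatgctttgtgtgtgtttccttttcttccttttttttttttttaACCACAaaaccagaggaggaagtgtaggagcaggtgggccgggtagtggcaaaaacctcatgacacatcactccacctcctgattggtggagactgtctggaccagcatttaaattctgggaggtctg
These matches describe letters in the windows and not bound sites.

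The markers differed widely in level. On the TPM scale, which is per transcript length, the mean levels in the 5 WT libraries ranged from 383 ± 184 TPM for Spp1 and 275 ± 81.3 TPM for Pvalb to 0.287 ± 0.0681 TPM for Whrn (SD, n = 5). Between them stood Ldhb at 113 ± 15.4, Cntnap2 at 102 ± 9.09, Calb1 at 45.9 ± 4.81, Fam19a1 at 27.6 ± 1.32, Esrrg at 9.97 ± 1.75, Necab2 at 3.49 ± 1.03 and Heg1 at 1.87 ± 0.218 TPM (SD, n = 5). Neighbours in this order were separated in all 5 WT libraries, except that Ldhb lay above Cntnap2 in 4 of 5. The ranges of Spp1 and Pvalb, of Ldhb and Cntnap2, and of Necab2 and Heg1 overlapped. Whrn rested on 21 to 60 estimated counts per library and Necab2 on 108 to 467, so their values carry more counting error than those of the other members.

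In the 10 libraries, 3 of the 10 members fell in Q84 ganglia and none rose. They were the calcium-binding proteins Calb1 and Necab2 and the secreted chemokine-like protein Fam19a1. Of all 18721 genes tested, 4.93% fell and 1.52% rose (edgeR's quasi-likelihood test with sex in the model, Benjamini-Hochberg adjusted p under 0.05). The median log2 fold change of the members was -0.22, beside 0.01 for all genes. The same 3 members were those whose counts scaled with TMM to a common library total (CPM) in the 5 Q84 libraries lay wholly below the 5 WT libraries, which 5.96% of all genes did. In the 12 libraries 0 members were so separated on the CPM scale, beside 1.15% of all genes. Over the 12 libraries as labelled, 0 of the 10 members passed (edgeR), where 0.0053% of 18875 genes did. There 3 members had an unadjusted p under 0.05, as had 14.3% of all genes, and the median of the members was -0.13. By DESeq2, 1 member passed in the 12 libraries, Calb1 (adjusted p = 0.0253), and by limma-voom 0 did. The shares of all genes that passed by these tools are not given, so these counts are not compared with them. In bulk RNA, fewer cells of a type and less RNA per cell cannot be told apart.

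**Figure D1:**
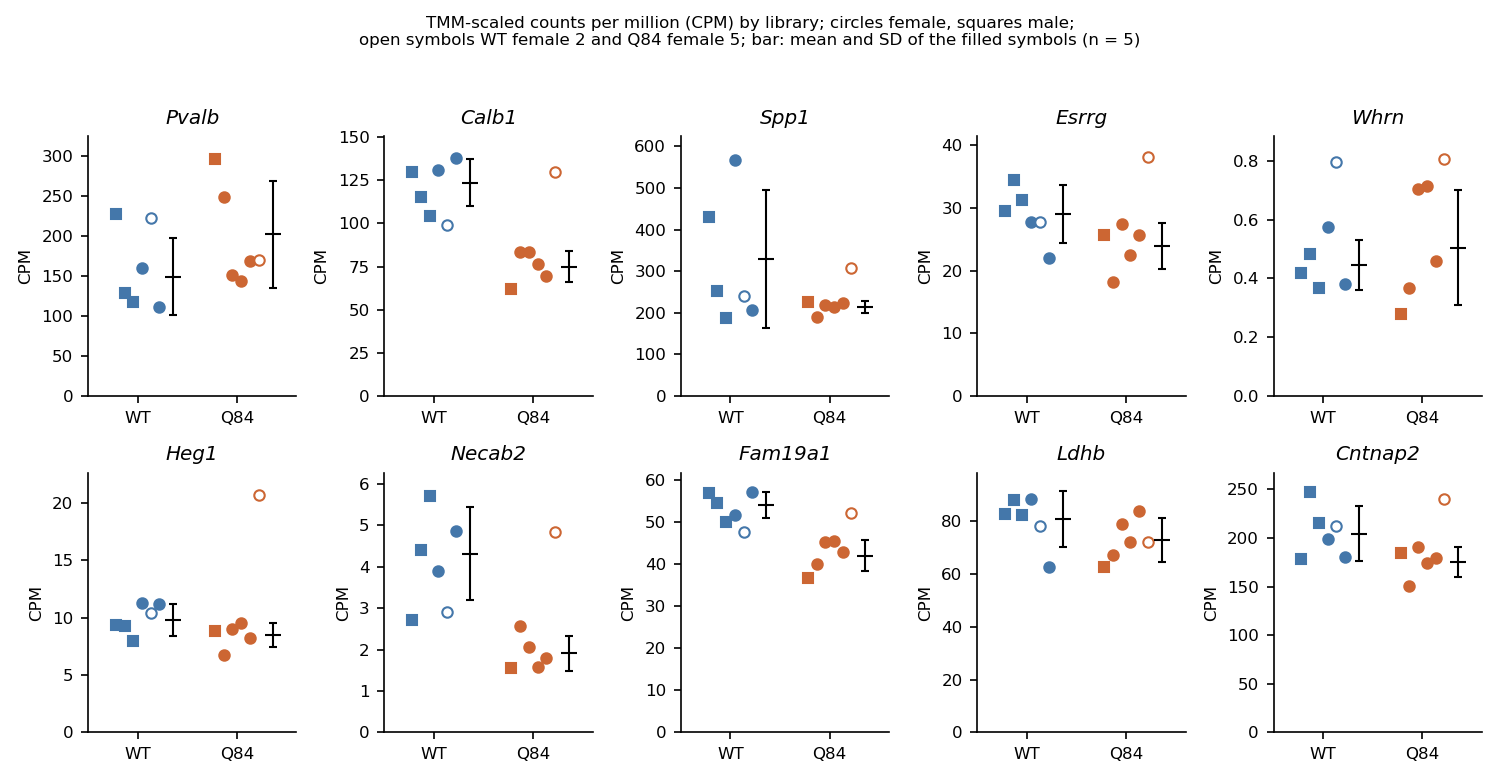
TMM-scaled CPM of each member in every library (y axis, from 0), WT in blue and Q84 in orange, females as circles and males as squares; open symbols are those labelled WT female 2 and Q84 female 5, and bars give the mean and SD of the 5 filled symbols. For Calb1, Necab2 and Fam19a1 the filled Q84 symbols all lie below the filled WT symbols, and the open Q84 symbol lies among the WT libraries.

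Calb1 encodes calbindin, a fast cytosolic calcium buffer of a subset of large neurons. Its level in WT males 1 to 3 was 129.6, 115.2 and 104.3 CPM, and in WT females 1 and 3 it was 130.7 and 138.1 CPM. In Q84 male 1 it was 62.2 CPM, and in Q84 females 1 to 4 it was 83.3, 83.6, 76.3 and 69.8 CPM. Every one of these Q84 libraries was below every WT library. The library labelled WT female 2, at 99.0 CPM, was below the other WT libraries, and that labelled Q84 female 5, at 129.8 CPM, was among them. Mean Calb1 was 123.6 ± 13.6 CPM (SD, n = 5) in WT against 75.0 ± 9.16 CPM (SD, n = 5) in Q84. The fitted log2 fold change was -0.82 (SE 0.0864, edgeR adjusted p = 0.000166) in the 10 libraries and -0.59 (SE 0.165, edgeR adjusted p = 0.14) in the 12. Of its 3 listed transcripts, Calb1-201 held 94.6% of the TPM of the gene, and in a fit across all transcripts, added after the data were seen, it fell by 0.80 on the log2 scale in the 10 libraries (edgeR adjusted p = 0.00272). In the same fit the main transcripts of the other 2 members that fell did not pass: Necab2-201 was at -1.24 (edgeR adjusted p = 0.0633) and Fam19a1-202 at -0.31 (edgeR adjusted p = 0.167). Calb1 passed in the 10 libraries when each one was left out and without the 3 libraries richest in muscle genes.

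Necab2 encodes a neuronal calcium-binding protein that partners with G protein-coupled receptors. It was the member with the lowest fitted fold change, from a low level. WT males 1 to 3 held 2.71, 4.41 and 5.70 CPM, and WT females 1 and 3 held 3.91 and 4.86 CPM. Q84 male 1 held 1.56 CPM, and Q84 females 1 to 4 held 2.58, 2.07, 1.57 and 1.79 CPM. The groups did not overlap, but the highest Q84 library was close to the lowest WT library. The library labelled WT female 2, at 2.90 CPM, and that labelled Q84 female 5, at 4.84 CPM, both stood within the range of the WT libraries. Mean Necab2 was 4.32 ± 1.12 CPM (SD, n = 5) in WT against 1.91 ± 0.423 CPM (SD, n = 5) in Q84. The log2 fold change was -1.24 (SE 0.235, edgeR adjusted p = 0.0079) in the 10 libraries and -0.82 (SE 0.328, edgeR adjusted p = 0.277) in the 12. Without Q84 male 1 the 10-library value was no longer called (adjusted p = 0.0542, edgeR). With replicate number as a block in the fit it was not called either.

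Fam19a1 encodes a small secreted protein of sensory neurons. Relative to its mean it varied least of the members among the WT libraries. WT males 1 to 3 held 56.9, 54.5 and 50 CPM, and WT females 1 and 3 held 51.5 and 57.0 CPM. Q84 male 1 held 36.6 CPM and Q84 females 1 to 4 held 39.9, 45.1, 45.4 and 42.8 CPM. These Q84 libraries lay below all 5 WT libraries. The library labelled WT female 2, at 47.6 CPM, fell between the groups, and the library labelled Q84 female 5, at 52.1 CPM, within WT. On the TPM scale, which has no TMM scaling, the groups did not overlap in the 12 libraries. They held 24.96 to 29.3 TPM in WT and 19.2 to 24.4 TPM in Q84. The summed TPM of the 14 pan-neuronal genes was lower in Q84 as well, at 8874 ± 624.3 against 9939 ± 1228 (SD, n = 5 each). How many of all genes were separated in TPM was not counted. Mean Fam19a1 was 54.0 ± 3.15 CPM (SD, n = 5) in WT against 42.0 ± 3.73 CPM (SD, n = 5) in Q84. The log2 fold change was -0.41 (SE 0.0848, edgeR adjusted p = 0.0136) in the 10 libraries and -0.31 (SE 0.0945, edgeR adjusted p = 0.169) in the 12. The call was lost without Q84 male 1 (adjusted p = 0.106, edgeR) or WT female 3 (0.0694). It was lost too in the females alone (0.0877), without the 3 libraries richest in muscle genes (0.0831), and when libraries were scaled by their pan-neuronal genes (0.154, log2 fold change -0.30). Replicate number as a block in the fit ended the call as well.

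**Figure D2:**
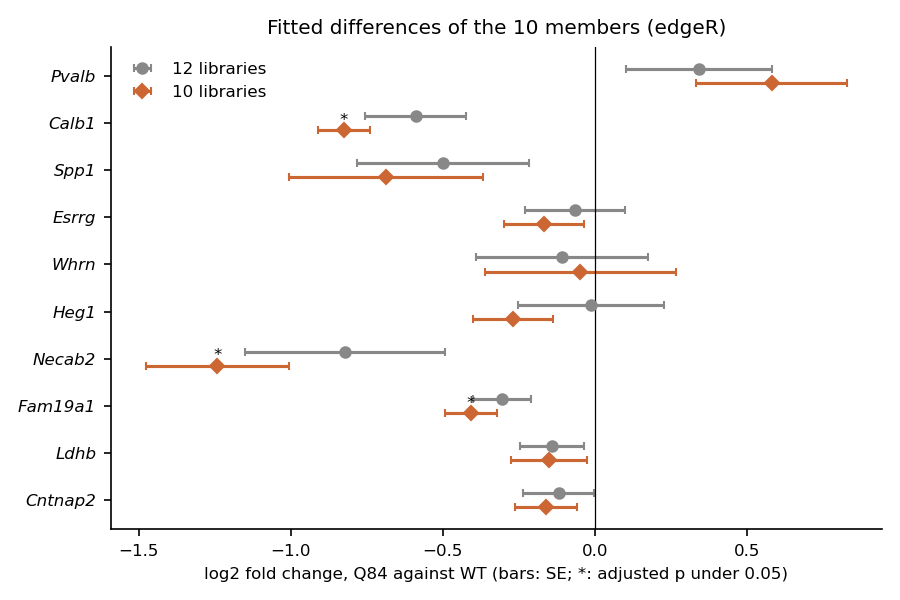
Fitted log2 fold change of Q84 against WT for each member (x axis; bars give the SE), grey circles for the 12 libraries as labelled and orange diamonds for the 10; an asterisk marks an edgeR adjusted p under 0.05. Calb1, Necab2 and Fam19a1 carry asterisks in the 10 libraries, at -0.82, -1.24 and -0.41, and Pvalb is the member with a fitted value above 0.

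Pvalb encodes parvalbumin, the calcium buffer by which proprioceptors are most often recognised. Summed over the gene, WT males 1 to 3 held 227.4, 128.5 and 117.3 CPM and WT females 1 and 3 held 160.3 and 111.2 CPM. Q84 male 1 held 295.9 CPM and Q84 females 1 to 4 held 248.9, 151.4, 143.3 and 168.6 CPM. The groups overlapped, with Q84 male 1, Q84 female 1 and WT male 1 above the rest. WT female 2 and Q84 female 5, as labelled, held 221.7 and 169.8 CPM. The log2 fold change was 0.58 (SE 0.248, edgeR adjusted p = 0.226) in the 10 libraries and 0.34 (SE 0.24, edgeR adjusted p = 0.568) in the 12.

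The gene is listed with 2 transcripts that share 889 bases and differ at their start. Pvalb-201, of 977 bases, has 88 bases of its own, and Pvalb-202, of 953 bases, has 64. The level of Pvalb-202 moved with the summed level of the 12 skeletal muscle genes. In the 5 libraries with 429 to 3293 TPM of muscle genes (Q84 male 1, Q84 female 1, WT male 1 and, as labelled, WT female 2 and Q84 female 5) Pvalb-202 stood at 99.4 to 499 TPM. In the other 7, with 7.73 to 199.7 TPM of muscle genes, it stood at 0 to 52.9 TPM. Ranked by muscle genes and by Pvalb-202, 8 of the 12 libraries took the same place in both orders.

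Pvalb-201 ran the other way at the top of the muscle range. It stood at 101.3 TPM in Q84 male 1 and 88.8 TPM in Q84 female 1, the 2 libraries highest in muscle genes, and at 199.1 to 283.4 TPM in the 7 libraries with least. Reads of the shared bases are divided between both transcripts by likelihood, so the estimate of one depends on that of the other. Among those 7 libraries, WT male 2, WT male 3, WT female 1 and WT female 3 held 246.3, 216.7, 239.4 and 199.1 TPM of Pvalb-201, and Q84 females 2, 3 and 4 held 271.3, 233.1 and 283.4 TPM. The share of Pvalb-202 in the TPM of the gene was 12.9 ± 16.7% in WT and 34.6 ± 43.5% in Q84 (SD, n = 5 each), with overlap between the groups. The muscle list itself had 0 of 12 genes called in the 10 libraries (edgeR; 0 at an unadjusted p under 0.05) with a median log2 fold change of 2.46. Without the 3 libraries richest in muscle genes among the 10, the log2 fold change of Pvalb was 0.19 (edgeR adjusted p = 0.499). With the muscle level as a covariate it was 0.43 and passed (edgeR adjusted p = 0.0426). Both muscle fits were added after the data were seen. With replicate number as a block in the fit, Pvalb was called as a rise in the 10 libraries as well.

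**Figure D3:**
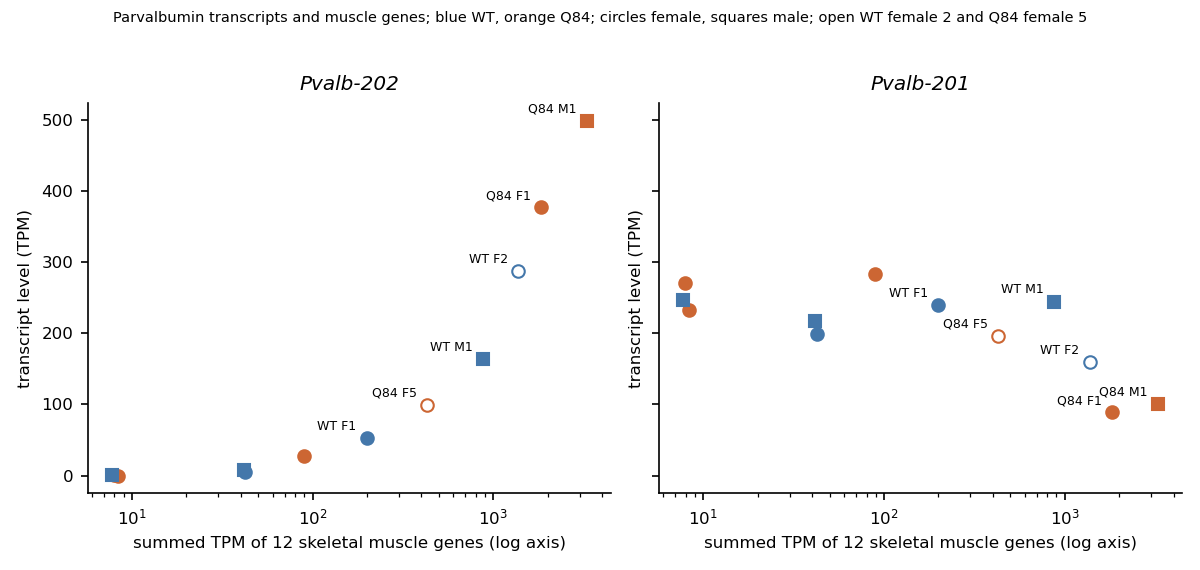
Level of Pvalb-202 (left) and Pvalb-201 (right) in TPM on the y axis against the summed TPM of 12 skeletal muscle genes on a log x axis, 1 symbol per library, WT in blue and Q84 in orange, open symbols for those labelled WT female 2 and Q84 female 5. Pvalb-202 is higher at higher muscle levels in both genotypes, from 0 to 499 TPM in Q84 and from 0.759 to 287.2 TPM in WT, while Pvalb-201 is lowest in Q84 female 1 and Q84 male 1.

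Cntnap2 encodes Caspr2, the adhesion protein that holds potassium channels beside the nodes of myelinated axons. As summed counts it did not pass. The 5 WT libraries had a lowest level of 178.5, a median of 198.9 and a highest of 247.1 CPM, and the 5 Q84 libraries 150.4, 179.2 and 190.3 CPM. The log2 fold change was -0.16 (SE 0.102, edgeR adjusted p = 0.427) in the 10 libraries and -0.12 (SE 0.117, edgeR adjusted p = 0.707) in the 12. Per length and without TMM scaling, the summed TPM was 101.6 ± 9.09 in WT and 66.6 ± 4.74 in Q84 (SD, n = 5 each). In the 12 libraries the groups did not overlap on that scale, at 91.4 to 115.2 TPM against 59.9 to 90.6 TPM. How many of all genes were separated in TPM was not counted. When TPM were scaled by length to counts before the same test, Cntnap2 fell by 0.54 on the log2 scale in the 10 libraries (edgeR adjusted p = 0.00187).

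One short transcript of the gene was singled out after its values were seen. Cntnap2-201, with 4 exons and 1540 bases, shares 1477 bases with the 24-exon transcript Cntnap2-202 of 9827 bases, and all its bases lie within Cntnap2-205 of 6279 bases. It held 76.9, 71.9 and 69.7% of the TPM of the gene in WT males 1 to 3 and 76.4 and 72.9% in WT females 1 and 3. It held 63.0% in Q84 male 1 and 68.7, 62.4, 66.3 and 64.4% in Q84 females 1 to 4. The groups did not overlap, and WT female 2 and Q84 female 5, as labelled, held 67.4 and 61.0%. The mean share was 73.6 ± 3.04% in WT and 64.9 ± 2.59% in Q84 (SD, n = 5 each). A permutation test of this share was run. Since the transcript was picked after its values were seen, the share is given as a description alone. Over the 12 libraries the share was 72.5 ± 3.69% against 64.3 ± 2.81% (SD, n = 6 each).

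In TPM, Cntnap2-201 stood at 70.8, 82.8 and 71.7 in WT males 1 to 3 and at 78.9 and 68.9 in WT females 1 and 3. It stood at 44.5 TPM in Q84 male 1 and at 41.2, 43.9, 42.1 and 44.3 TPM in Q84 females 1 to 4, within a narrow band below all WT libraries. Between the groups stood WT female 2 as labelled, at 61.6 TPM, and Q84 female 5 as labelled, at 55.3 TPM. In the fit across all transcripts Cntnap2-201 fell in the 10 libraries (log2 fold change -0.74, SE 0.0851, edgeR adjusted p = 0.00349), where 0.895% of 62381 transcripts fell. In the 12 libraries it did not pass (log2 fold change -0.58, edgeR adjusted p = 0.275). It passed in the 10 libraries when each library was left out, and did not pass without the 3 libraries richest in muscle genes (-0.67, edgeR adjusted p = 0.057). With replicate number as a block in the fit it did not pass either. Cntnap2-202 had a log2 fold change of 0.37 (edgeR adjusted p = 0.687) and Cntnap2-205 one of -0.31 (edgeR adjusted p = 0.748) in the 10 libraries. Because Cntnap2-201 has no base outside Cntnap2-205, its level is the estimate by which coverage of those bases exceeded that of the longer form, and coverage along the gene was not tested.

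**Figure D4:**
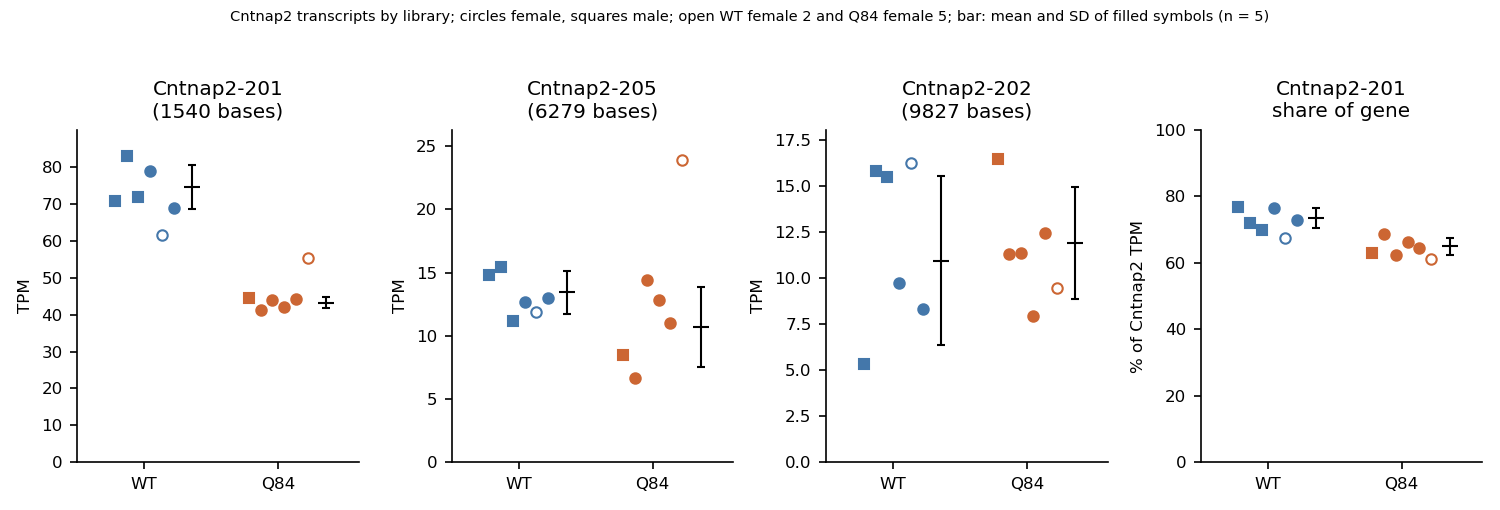
Levels in TPM of Cntnap2-201, Cntnap2-205 and Cntnap2-202 and the share of Cntnap2-201 in the TPM of the gene (y axes, from 0) by library, WT in blue and Q84 in orange, open symbols for those labelled WT female 2 and Q84 female 5, bars for the mean and SD of the 5 filled symbols. The filled Q84 symbols of Cntnap2-201 lie at 41.2 to 44.5 TPM, below 68.9 to 82.8 TPM in WT, while those of the longer transcripts overlap between the groups.

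Spp1 encodes osteopontin, a secreted protein of large sensory neurons and of activated macrophages. WT males 1 to 3 held 431.1, 251.8 and 187.7 CPM, and WT females 1 and 3 held 568.3 and 207.2 CPM. Q84 male 1 held 225.8 CPM, and Q84 females 1 to 4 held 190.4, 218.3, 213.3 and 223.4 CPM. The Q84 libraries were alike, and WT female 1 and WT male 1 stood far above the other WT libraries, which overlapped with Q84. WT female 2 and Q84 female 5, as labelled, held 241.5 and 308.8 CPM. The log2 fold change was -0.69 (SE 0.32, edgeR adjusted p = 0.277) in the 10 libraries, -0.17 without WT female 1 (adjusted p = 0.812), and -0.50 (SE 0.283, edgeR adjusted p = 0.461) in the 12. In WT female 1 the 12 macrophage genes summed to 447.6 TPM, beside 131.5 to 361.8 TPM in the other libraries. Gpnmb, a gene of lipid-laden macrophages, stood there at 16.4 TPM and at 1.21 to 3.14 TPM elsewhere. In WT male 1 the macrophage genes summed to 192.4 TPM. The part of these cells in the Spp1 levels was not tested.

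The remaining members did not pass in either set. Esrrg encodes a nuclear receptor of oxidative metabolism found in proprioceptors. Its levels in WT had a lowest value of 22.1, a median of 29.6 and a highest of 34.5 CPM, and in Q84 of 18.2, 25.7 and 27.4 CPM, with a log2 fold change of -0.17 (SE 0.132, edgeR adjusted p = 0.553) in the 10 libraries. Ldhb, the lactate dehydrogenase subunit of oxidative cells, ran from 62.4 to 88.3 CPM in WT and from 62.8 to 83.7 CPM in Q84 (log2 fold change -0.15, SE 0.124, edgeR adjusted p = 0.57). For both genes the groups overlapped.

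Heg1, a transmembrane mucin-like protein that is also a gene of endothelium, ran from 7.96 to 11.3 CPM in WT and from 6.73 to 9.49 CPM in Q84 (log2 fold change -0.27, SE 0.132, edgeR adjusted p = 0.285). The library labelled Q84 female 5 stood apart at 20.6 CPM, above all others. The summed level of 8 endothelial genes there was 84.1 TPM, within the 74.4 to 117.2 TPM of all 12 libraries. The cause of the Heg1 level in that library was not tested. Whrn, a scaffold protein of hair cells and proprioceptors, ran from 0.366 to 0.574 CPM in WT and from 0.280 to 0.714 CPM in Q84 (log2 fold change -0.05, SE 0.315, edgeR adjusted p = 0.96). Over the 12 libraries as labelled, the log2 fold changes of Esrrg, Ldhb, Heg1 and Whrn were -0.07, -0.14, -0.01 and -0.11, with edgeR adjusted p of 0.903, 0.589, 0.99 and 0.909.

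Sex was the other factor of the labels, with 1 male library among those labelled Q84. Of the 10 members, 0 differed between males and females by edgeR and 0 by DESeq2, where 0.0636% of all genes did by edgeR. At an unadjusted p under 0.05 there was 1, Whrn, with a log2 fold change of -0.68 in males against females (edgeR unadjusted p = 0.0461, adjusted p = 1), where 3.82% of all genes were past that mark.

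Other genes of the same neurons were taken from 2 further lists, which hold no member. These lists too were chosen with earlier results of these data known. Of 22 other genes of large myelinated neurons, 7 fell and none rose in the 10 libraries, where 4.93% of all genes fell and 1.52% rose. Their median log2 fold change was -0.47, with 21 of 22 below 0. In the 12 libraries as labelled 0 of the 22 passed, where 0.0053% of all genes did (edgeR), and the median was -0.28. The calls included Kcns1, a silent potassium channel subunit (-1.05, SE 0.161, edgeR adjusted p = 0.00223), and Scn4b, a sodium channel subunit of fast-firing neurons (-0.95, SE 0.178, edgeR adjusted p = 0.0095). Kcnab1, a potassium channel accessory subunit (-0.64, edgeR adjusted p = 0.00405), and Ntrk2, the BDNF receptor of touch neurons (-0.37, edgeR adjusted p = 0.0079), fell as well. Scn4b was not called without Q84 male 1 (edgeR adjusted p = 0.0538), nor Ntrk2 without WT female 3 (0.0524) or with pan-neuronal scaling (0.114). Ntrk2 was not called with replicate number as a block either. Over the 12 libraries the log2 fold changes of Kcns1, Scn4b, Kcnab1 and Ntrk2 were -0.81, -0.755, -0.45 and -0.25. The edgeR adjusted p there were 0.139, 0.139, 0.239 and 0.306.

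Of 16 other proprioceptor genes, 2 fell and 1 rose in the 10 libraries, with a median of -0.22. Of all genes, 4.93% fell and 1.52% rose there. In the 12 libraries as labelled 0 of the 16 passed, where 0.0053% of all genes did (edgeR), and the median was -0.19. Calb2, which encodes the calcium buffer calretinin, stood at 17.9, 14.6 and 15.5 CPM in WT males 1 to 3 and at 12.1 and 5.49 CPM in WT females 1 and 3. It stood at 3.26 CPM in Q84 male 1 and at 2.48, 1.91, 2.67 and 3.98 CPM in Q84 females 1 to 4. All these Q84 libraries were below all WT libraries, and WT female 3 was lowest among WT. The log2 fold change was -1.89 (SE 0.278, edgeR adjusted p = 0.00218), and without the 3 libraries richest in muscle genes it was -1.62 (edgeR adjusted p = 0.0695). Kcnc1, a fast potassium channel of neurons that fire at high rates, fell too (-0.85, edgeR adjusted p = 0.0442), but was called in 3 of the 10 fits that left out 1 library, and not in the females alone (0.0969) or with pan-neuronal scaling (0.0594). The one rise was Pou4f3, a transcription factor of hair cells and sensory neurons (0.49, edgeR adjusted p = 0.0183). Its call was lost without WT female 3 (0.097), without Q84 male 1 (0.0815), in the females alone (0.0541) and without the 3 libraries richest in muscle genes (0.0521). With replicate number as a block, neither Kcnc1 nor Pou4f3 was called. Over the 12 libraries the log2 fold changes of Calb2, Kcnc1 and Pou4f3 were -1.51, -0.34 and 0.38. The edgeR adjusted p there were 0.108, 0.758 and 0.14.

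The members' values stand beside those of other cells. Of 12 small nociceptor genes, 6 fell and none rose in the 10 libraries, where 4.93% of all genes fell and 1.52% rose. Their median was -0.83, a lower median than that of the members. In the 12 libraries as labelled 0 of these 12 genes passed, where 0.0053% of all genes did (edgeR), and the median was -0.60. Of 14 pan-neuronal genes, 0 passed (edgeR; 2 at an unadjusted p under 0.05), with a median of -0.11. Among 12 macrophage, 8 endothelial, 8 myelinating Schwann cell and 8 satellite glia genes 0 passed (edgeR; 2, 4, 0 and 1 at an unadjusted p under 0.05). The share of all genes past that unadjusted mark was 14.3% in the 12 libraries and is not given for the 10, so these counts are not compared with it. Of 10 spinal cord genes Gad1 rose and Aqp4 fell in the 10 libraries, and 0 passed in the 12 (edgeR). The list summed to 5.61 to 19.7 TPM in all libraries. In the 10 libraries Calb1 was called with the muscle level as a covariate and without the 3 libraries richest in muscle genes. Beyond these fits, muscle content as a cause of the Calb1 levels was not tested.

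**Figure D5:**
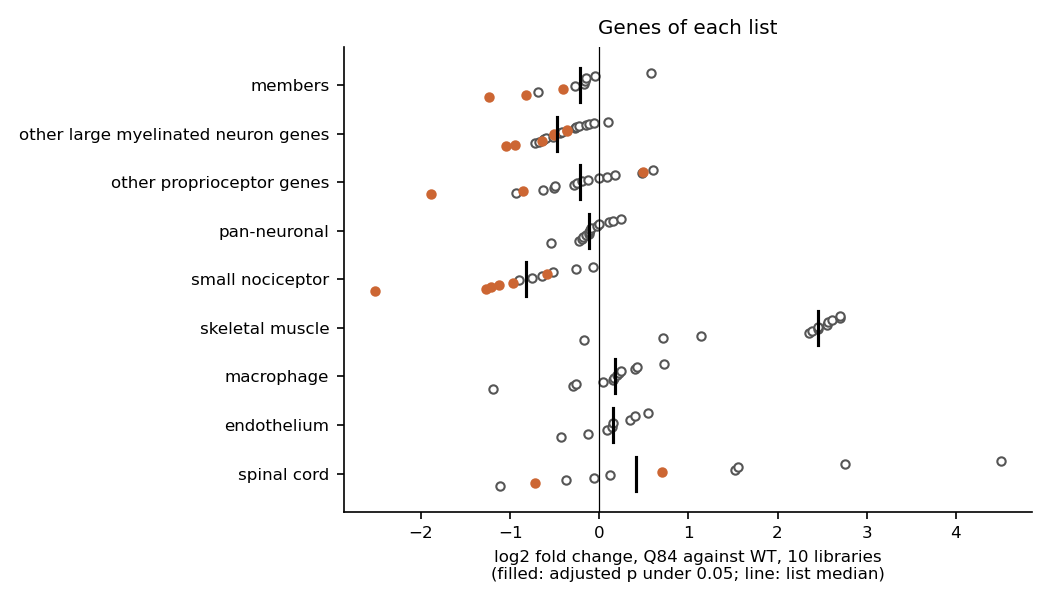
Fitted log2 fold change of Q84 against WT in the 10 libraries (x axis) for each gene of 9 lists (y axis), filled symbols for an edgeR adjusted p under 0.05 and a vertical line for the median of the list. The medians of the members, the other large myelinated neuron genes and the small nociceptor genes lie at -0.22, -0.47 and -0.83, and 11 of the 12 skeletal muscle genes lie above 0 with none filled.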

How the data were processed

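Poly(A) RNA of dorsal root ganglia was measured in 12 libraries, grouped by the genotype and sex in their labels. Per the submitters' processing notes, kallisto 0.46.2, STAR 2.7.10b and the build GRCm39 were used. Per the file headers, the deposited tables give estimated counts, effective length and TPM for 116313 transcripts, as kallisto writes them. The authors' estimated counts are fractional and carry no scaling across libraries, and the authors' TPM correct for transcript length and sum to the same total in every library. Effective lengths entered 1 alternative.

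Transcripts were mapped to genes by identifier without version with GENCODE M21 (GRCm38; 98.3% matched, unmatched ones held 0.751 to 0.804% of counts and were left out). Since the builds differ, no coordinates of genes are given, and promoter windows are those of RefSeq on GRCm38.p6. Each gene received the rounded sum of its transcripts' estimated counts. Low genes were dropped by filterByExpr over the 4 sex-by-genotype groups, and TMM-scaled counts were tested with edgeR 4.0.16 (robust quasi-likelihood, model of sex and genotype, Benjamini-Hochberg threshold 0.05), which was tested on simulated data. DESeq2 1.42.0, limma-voom 3.58.1, other scalings, no filter, length-scaled TPM, no sex term, females alone, a replicate block and leaving out single libraries served as alternatives. Fits per transcript, shares of transcripts (compared by permutation, given as a description alone), a muscle covariate and leaving out the 3 libraries richest in muscle genes were added after the data were seen. Replicates differed beyond sampling noise (chi-square per degree of freedom 30.9 or more).

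The members, lists and leaving out of 2 libraries were chosen with earlier results of these data known. Named genes are all members and, of each other list, up to 4 genes of smallest p per direction among those that passed, otherwise up to 2. Some of them are given within the counts of their list. Gpnmb and the transcripts described were picked after their values were seen.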

Additional observations from a re-analysis of the deposited data

Results flagged for a closer look

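Of 40 groups of member values, 5 held a library farther from the rest than a Dixon test at 95% allows, where chance flags about 1 in 20 groups. In 4 of them it was the library labelled Q84 female 5 among the 6 labelled Q84, whose 1000-base Atxn3 transcript goes against that label. It held 129.8 CPM of Calb1 (62.2 to 83.6 CPM in the other 5), 308.8 CPM of Spp1 (190.4 to 225.8), 20.6 CPM of Heg1 (6.73 to 9.49) and 4.84 CPM of Necab2 (1.56 to 2.58). For Calb1 and Necab2 this level lay within the range of the WT libraries, and for Heg1 above every other library. The remaining one was WT female 3, which held 62.4 CPM of Ldhb beside 82.2 to 88.3 CPM in the other 4 of the 5 WT libraries.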

How the results depend on the processing

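In the 12 libraries as labelled, 0 members passed. The count became 1 with DESeq2 and 1 with the replicate block (Calb1 in both), and 0 to 3 when each library was left out, with 3 without the library labelled Q84 female 5. In the 10 libraries, 3 members passed, and 1 to 3 when each library was left out, with 1 (Calb1) without Q84 male 1 and 2 without WT female 3. The count was 2, Calb1 and Necab2, with pan-neuronal scaling, in the females alone and without the 3 libraries richest in muscle genes. With the replicate block it was 2 as well, of which Calb1 fell and Pvalb rose. It was 4 with length-scaled TPM, where Cntnap2 fell too. With the muscle covariate it was 4, where Pvalb rose beside the 3 that fell. For sex the count was 0 in every fit run. The shares of all genes called in these alternative fits are not given, so the counts are not compared with them.

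Whether the replicate numbers pair the libraries was not settled. Among 9 pairs with the same number the correlation of deviations ran from -0.13 to 0.24 and exceeded 0.1 in 2, and 5 of 9 libraries correlated best with their own number. With the replicate block in the 10 libraries, Calb1 fell, Pvalb rose (0.49, edgeR adjusted p = 0.0223), and Necab2 (0.0587), Fam19a1 (0.0668) and Cntnap2-201 (0.072) did not pass, nor did Ntrk2 (0.0546), Kcnc1 (0.0706) and Pou4f3 (0.0617).

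Some values near 0 changed sign without passing. In the 12 libraries, pan-neuronal scaling gave log2 fold changes of 0.056 for Esrrg, 0.015 for Whrn, 0.11 for Heg1 and 0.0071 for Cntnap2. Without the sex term Whrn was at 0.14 and Heg1 at 0.084, and in the females alone Esrrg was at 0.032 and Whrn at 0.064. In the 10 libraries Whrn was at 0.062 with pan-neuronal scaling, 0.068 with length-scaled TPM, 0.18 without the sex term, 0.24 in the females alone, 0.014 with the muscle covariate and 0.38 without the muscle-rich libraries. Ldhb was at 0.019 in the females alone and 0.053 without the muscle-rich libraries, where Esrrg was at 0.017. With each library left out, the ranges were -0.19 to 0.030 for Esrrg, -0.30 to 0.063 for Whrn and -0.27 to 0.079 for Heg1 in the 12, and -0.29 to 0.23 for Whrn and -0.32 to 0.0004 for Ldhb in the 10. The log2 ratio of mean levels of Cntnap2 moved from -0.14 to -0.50 in the 12 and from -0.22 to -0.61 in the 10 when TPM replaced CPM. The causes were not tested.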
